A study of Homo sapiens with 8 samples.

Results

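NRF2 (gene symbol NFE2L2), its regulators and the genes of the antioxidant defence were followed through an early oxidative stress response by mRNA-seq and ribo-seq. The set holds 49 genes, listed by symbol, of the 19964 genes with a coding transcript in the deposited tables. They were divided by role into 5 regulators, 21 redox enzymes, 10 glutathione genes, 5 NADPH genes, and 8 genes of iron, haem and metal handling. All 49 were found, and 47 passed a minimum mean of 10 counts per library in each assay. The remaining 2 were TXNIP, a thioredoxin-binding protein, and OSGIN1, a usual NRF2 target, with a mean below that minimum. The cells were HEK293T, an established human embryonic kidney line, and the samples form 4 groups of 2 libraries. These are ribo-seq and mRNA-seq of cells given vehicle (control) and of cells exposed for 30 min to 40 µM sodium arsenite, numbered replicate 1 and replicate 2 in each group. All cells, controls included, were chilled and washed with cycloheximide, which holds ribosomes on the mRNA, at harvest. One line, dose and time were sampled.

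NRF2 is a transcription factor that the adaptor KEAP1 normally marks for degradation. Arsenite and other electrophiles modify cysteines of KEAP1, so that newly made NRF2 accumulates, pairs with a small MAF protein such as MAFG and binds antioxidant response elements (AREs), where BACH1 otherwise represses transcription. Its targets supply the thioredoxin and glutathione systems, the NADPH that drives both, and proteins that break down haem and store iron. Ferritin is controlled at another step, since iron regulatory proteins bind a hairpin, the iron-responsive element, in the 5′ leaders of FTL and FTH1 mRNAs and block their translation.

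Short motifs named for these controls were searched in RefSeq promoter windows (GRCh38.p14), which span 250 bases before and 50 bases after each transcription start. Of the 49 genes, 39 had at least 1 window. The ARE core was searched as TGACNNNGC on both strands and was present in 13.3% of all 35116 windows and in 11 of the 56 windows of the set (19.6%), which belong to 10 genes. No match was found for the usual targets HMOX1, NQO1, GCLC, SRXN1 and OSGIN1, nor for TKT, whose mRNA rose. Of these, GCLC, SRXN1 and OSGIN1 had at least 1 window, and any of the others without a window could not match. Only 250 bases before and 50 bases after a start were searched. The lack of a match therefore does not show that a gene has no ARE. The core is shown for GCLM, TXNRD1 and KEAP1, which belong to the NRF2 circuit, and for PGD, whose mRNA also rose. Capitals mark the core, read on either strand.
GCLM, chr1:93909446-93909474, minus strand, first capital 34 bases before the start: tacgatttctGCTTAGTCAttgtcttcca
TXNRD1, chr12:104215670-104215698, plus strand, 99 bases before: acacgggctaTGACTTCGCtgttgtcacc
KEAP1, chr19:10502784-10502812, minus strand, 31 bases before: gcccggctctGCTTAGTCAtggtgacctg
PGD, chr1:10398853-10398881, plus strand, 201 bases before: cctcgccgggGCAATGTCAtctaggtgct
The core of metal response elements, through which metal-responsive transcription factor MTF1 acts on metallothioneins, was searched as TGCACNC or TGCGCNC on both strands. It occurs in 29.6% of all windows and in 30 of the 56 windows of the set. The window of MT1X, a metallothionein whose mRNA rose, holds 4 matches, and that of MT2A, the other metallothionein of the set, whose mRNA was not called, holds 8. Both letter forms are shown for MT1X.
MT1X, chr16:56682338-56682364, plus strand, 122 bases before: cacgggttgcTGCACCCggcccaggat
MT1X, chr16:56682407-56682433, plus strand, 53 bases before: gcggggcctcTGCGCCCggccctcttc
The loop of the iron-responsive element was searched as CAGTGN preceded by an unpaired C and 5 bases of any kind, on the gene's strand and in the 50 bases after the start. It occurs in 1.67% of all windows and in 4 of the 56 of the set, those of FTL, GPX1, GSTP1 and TXNRD2. In translation efficiency, FTL and GPX1 were called below the median of all genes, and GSTP1 and TXNRD2 above it. FTH1 had no match. Not every gene had a window and only 50 bases were searched, so this does not show that its element is absent. The match in FTL, the gene with the lowest translation efficiency of the set, lies 33 bases into the leader.
FTL, chr19:48965331-48965358, plus strand: ctgtctcttgCTTCAACAGTGTttggac
Each match is a description of these letters only.

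On the transcripts used, ribo-seq libraries held 1016863 to 7197534 coding sequence (CDS) footprints and mRNA-seq libraries 3993293 to 21724945 reads, with replicate 2 the deeper in every group. The labelled line was checked against markers. VIM, LIN28B, NEFM and KRT18 each had at least 133 mRNA-seq reads per library and PAX2 between 6 and 71, whereas ALB and PTPRC did not exceed 15 reads and CD3E and HBB were at 0. Levels are CPM, a gene's counts relative to the size of its library, scaled with TMM within each assay. A change is therefore relative to the bulk of mRNAs, and a fall of translation shared by all mRNAs is not part of it. In such bulk samples, fewer cells with an RNA and less RNA per cell cannot be told apart.

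In control cells, ferritin and GPX1 mRNAs carried far fewer ribosomes than the typical mRNA, whereas 5 of the 6 peroxiredoxins, thioredoxin and all 5 NADPH genes were called above the median. With no replicate block the ferritin and GPX1 calls were kept, and those above the median were not. Translation efficiency (TE) in control was the ratio of ribo-seq to mRNA-seq reads, both on the CDS so that length cancels, and is given as log2 relative to the median of all genes tested. FTL, the light chain of the iron store ferritin, had 31 and 221 CDS footprints in control replicates 1 and 2 against 1168 and 4751 mRNA-seq reads, which placed its TE at −4.31 and −3.57. FTH1, the ferritin heavy chain, stood at −1.70 and −2.52. GPX1, a selenium-containing peroxidase that uses glutathione, stood at −3.75 and −2.45. The fitted values were −4.02 ± 0.15 (SE) for FTL, −3.01 ± 0.15 for GPX1 and −2.13 ± 0.13 for FTH1, and only 0.0877% of the genes tested were lower than FTL. These 3 genes were the lowest of the set in both replicates. Reads that matched more than 1 gene had been discarded and ferritin has close copies in the genome, so its counts are less certain in both assays.

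At the other end of the scale, the 3 highest fitted values belonged to MT2A (2.15 ± 0.48), PGD (1.57 ± 0.11) and MT1X (1.54 ± 0.45). The metallothioneins, small metal-binding proteins, rest on few reads. MT2A had 17 and 28 footprints against 1 and 36 mRNA-seq CDS reads, so its TE was 4.72 in replicate 1 and 0.52 in replicate 2. MT1X had 14 and 16 footprints against 5 and 19 reads. PGD, an NADPH-producing dehydrogenase of the pentose phosphate pathway, was well covered and stood at 1.90 and 1.24. All 5 NADPH genes passed the threshold above the median. TKT, a transketolase of the same pathway, stood at 0.93 and 1.51, NQO1, a quinone reductase that consumes NADPH, at 1.55 and 0.97, ME1, the cytosolic malic enzyme, at 1.62 and 0.39, and TALDO1, transaldolase, at −0.01 and 0.72. TALDO1 was the only called gene whose replicates lay on opposite sides of the median.

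**Figure D1:**
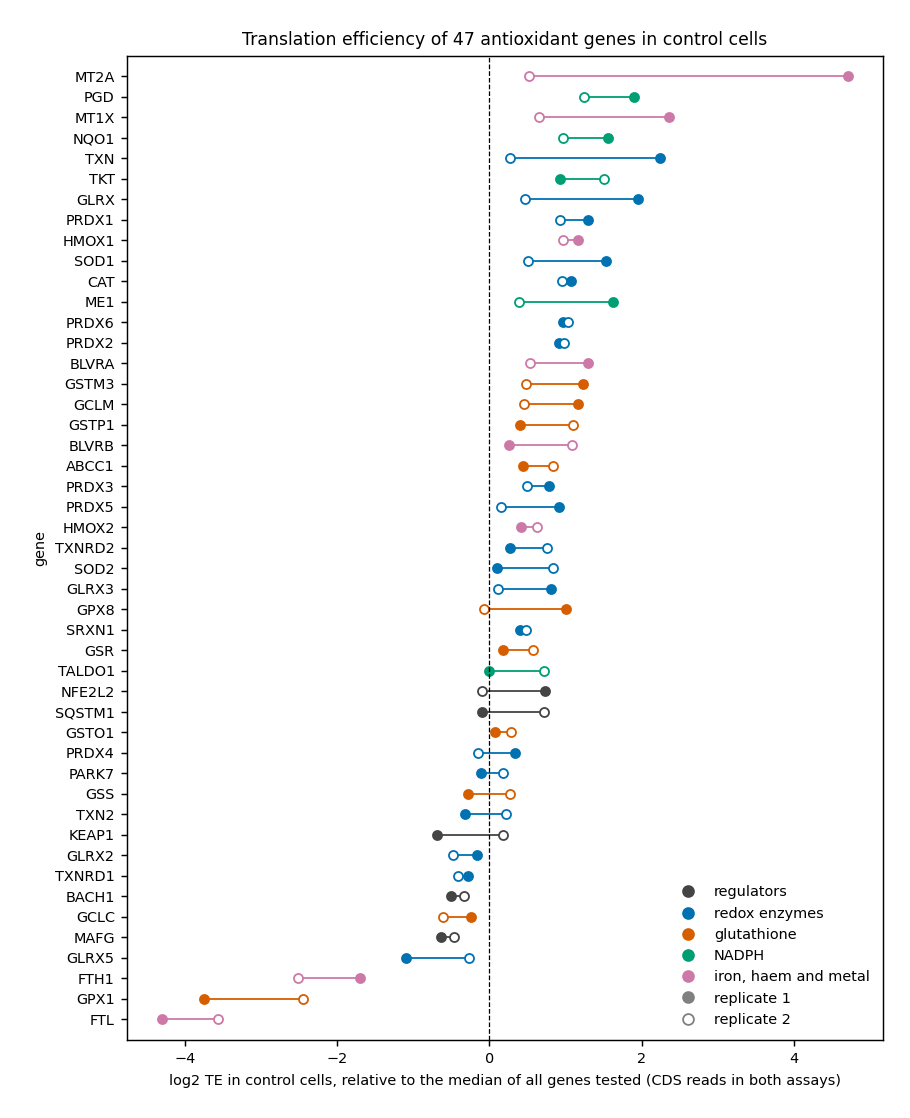
Translation efficiency in control cells of the 47 genes that passed the count minimum, as log2 ratio of ribo-seq to mRNA-seq CDS reads relative to the median of all genes tested (dashed line). Filled points are replicate 1, open points replicate 2, and colours are the roles. FTL, GPX1 and FTH1 lie lowest in both replicates, and the lines of MT2A and TXN are the widest.

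Of the 47 genes, 27 passed the threshold above the median and 7 below it, where 59.0% of all genes tested were called (29.2% higher and 29.8% lower), so the share is read against a high background. Among redox enzymes 12 were higher and 2 lower. The 2-cysteine peroxiredoxin PRDX1, a peroxide reductase, stood at 1.30 and 0.93 and PRDX2 at 0.91 and 0.98. The 1-cysteine peroxiredoxin PRDX6 stood at 0.97 and 1.03, catalase (CAT) at 1.08 and 0.96, and the superoxide dismutase SOD1 at 1.53 and 0.51. The peroxiredoxins PRDX3 (0.78 and 0.49) and PRDX5 (0.91 and 0.15), the mitochondrial SOD2 (0.10 and 0.84), the mitochondrial thioredoxin reductase TXNRD2 (0.26 and 0.76), and the glutaredoxins GLRX (1.96 and 0.47) and GLRX3 (0.81 and 0.11) were also higher. Thioredoxin itself, TXN, differed most between replicates among the genes with over 100 footprints in each control library, at 2.25 and 0.27. The other 5 redox enzymes did not pass. They were the mitochondrial thioredoxin TXN2 (−0.32 and 0.22), the peroxiredoxin PRDX4 of the endoplasmic reticulum (0.34 and −0.16), the redox-sensitive chaperone PARK7 (−0.12 and 0.18), the glutaredoxin GLRX2 (−0.16 and −0.48), and sulfiredoxin SRXN1 (0.41 and 0.48, on 9 and 113 footprints).

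The reductase of TXN, TXNRD1, was below the median, at −0.29 and −0.41, as was the iron-sulphur glutaredoxin GLRX5 at −1.10 and −0.27. In the glutathione group, the 2 subunits of glutamate-cysteine ligase, which makes the precursor of glutathione, lay on either side of the median. The catalytic subunit GCLC stood at −0.24 and −0.61 and the modifier subunit GCLM at 1.16 and 0.45. The transferases GSTP1 (0.40 and 1.09) and GSTM3 (1.23 and 0.49) and the exporter ABCC1 (0.44 and 0.83) were higher, and GSS, GSR, GSTO1 and GPX8 did not pass the threshold. In haem breakdown, the inducible haem oxygenase HMOX1 stood at 1.17 and 0.96, HMOX2 at 0.41 and 0.62, and the biliverdin reductases BLVRA and BLVRB at 1.29 and 0.53 and at 0.26 and 1.09.

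Among the regulators, only BACH1 was called, at −0.51 and −0.34. NFE2L2 stood at 0.73 and −0.10, KEAP1 at −0.69 and 0.18, and SQSTM1, an autophagy adaptor that binds KEAP1, at −0.09 and 0.72, so none of the 3 lay on the same side of the median in both replicates. MAFG stood at −0.63 and −0.46 on 9 and 32 footprints. Counting replicates instead of calls, 29 of the 47 genes were above the median in both replicates, where 37.4% of all genes were, and 9 were below it in both, where 37.4% were likewise.

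This model was fitted to all 8 libraries, arsenite included. Its error is how far the change with arsenite differed between replicates within each assay. It does not include the difference in control TE between the replicates. With the replicates as plain repeats and no block, 3 of the 47 genes were called, FTL (adjusted p = 0.00695), GPX1 (adjusted p = 0.0109) and FTH1 (adjusted p = 0.0405), all lower, against 8.31% of all genes in either direction and 6.45% in the lower direction. The other 31 calls were lost.

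At the mRNA level, arsenite left most of these genes close to control. Of 7 usual NRF2 targets chosen by symbol, HMOX1, NQO1, GCLM, GCLC, TXNRD1 and SRXN1 were tested and not called at 30 min, and OSGIN1 was too low to test. Of 47 genes, 3 rose and 3 fell, where 5.78% of the 12600 genes tested were called (3.78% higher and 2.00% lower). The median log2 change was −0.06 over the 47 genes and −0.01 over all genes tested. The pentose phosphate enzymes TKT and PGD and the metallothionein MT1X rose, whereas FTL, GPX1 and PRDX5 fell.

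In control, TKT mRNA was at 254 (replicate 1) and 274 (replicate 2) CPM, against 323 and 354 after arsenite. Both arsenite libraries lay above both controls, a 1.28-fold increase (log2 0.36 ± 0.05 SE, adjusted p = 1.15e-09). In the mRNA tests, SE, interval and p use a spread that is in effect shared over genes. They do not measure the variation of a single gene's own replicates. PGD was 302 and 150 in control, against 343 and 185 after arsenite. The groups overlapped because the replicates differed in level, but PGD was higher in arsenite within each, 1.19-fold in the fit (log2 0.25 ± 0.05, adjusted p = 9.04e-05). MT1X was 4.12 and 5.58 in control and 6.71 and 7.94 in arsenite, with no overlap and a 1.45-fold increase (log2 0.54 ± 0.17, adjusted p = 0.0303). Metallothioneins are a family of near-identical genes, so its counts are uncertain where reads matched several of them. The other NADPH genes and the other metallothionein did not pass. ME1 changed by 0.08 (95% interval −0.07 to 0.23), TALDO1 by 0.00 (−0.10 to 0.11), NQO1 by 0.02 (−0.29 to 0.34) and MT2A by 0.06 (−0.18 to 0.31).

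FTL was 439 and 390 CPM in control and 371 and 337 in arsenite, a decrease without overlap to 0.857 of control (log2 −0.22 ± 0.05, adjusted p = 0.000775). GPX1 was 245 and 276 in control and 221 and 233 in arsenite, likewise without overlap (0.863 of control, log2 −0.21 ± 0.05, adjusted p = 0.00263). PRDX5, a peroxiredoxin found in several compartments, was 121 and 166 in control and 97.9 and 151 in arsenite. Its groups overlapped, and it was lower within each replicate (0.884 of control, log2 −0.18 ± 0.06, adjusted p = 0.0342). All 6 changes had the same sign in both replicates.

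**Figure D2:**
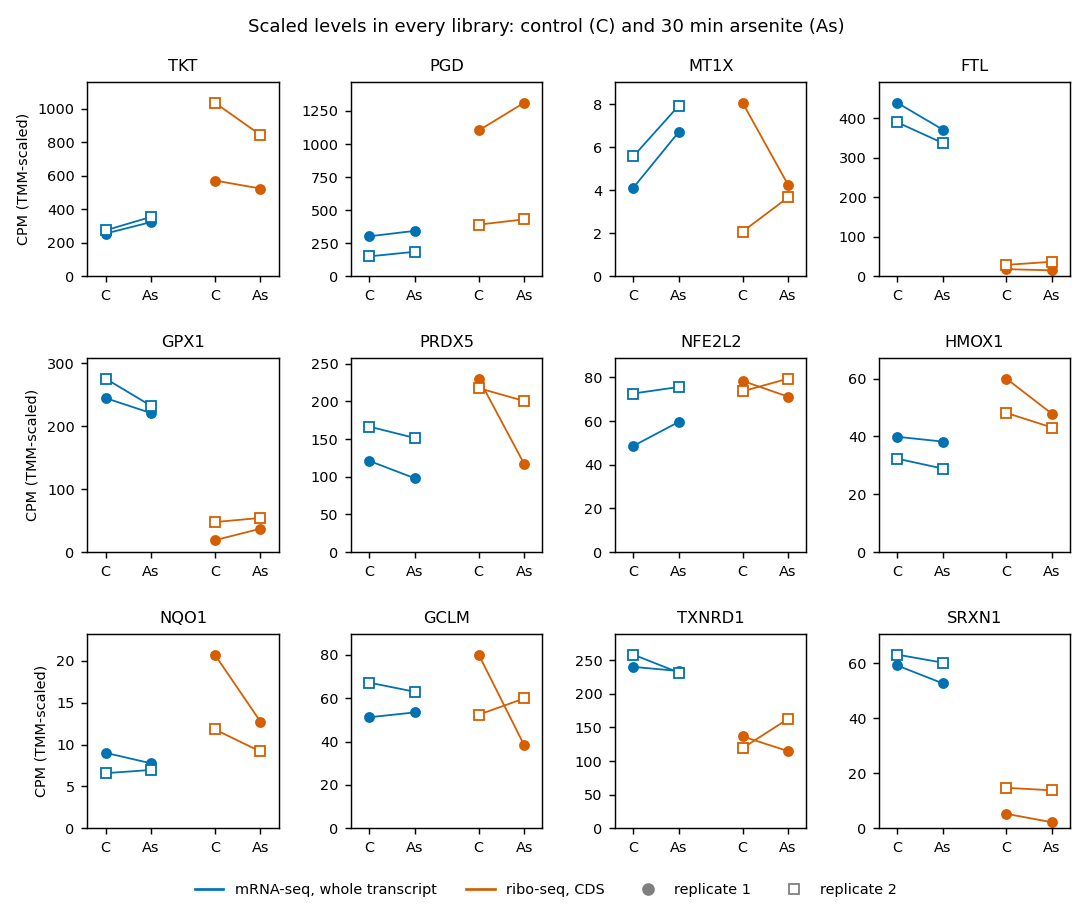
CPM in every library for the 6 genes whose mRNA changed (TKT, PGD, MT1X, FTL, GPX1, PRDX5), NFE2L2 and 5 of its usual targets, in control (C) and after 30 min arsenite (As). Blue is mRNA-seq over the transcript and orange ribo-seq over the CDS, filled circles are replicate 1 and open squares replicate 2. TKT mRNA rises in both replicates and its footprints are lower in arsenite in both without passing the test, and the mRNA of MT1X rises from 4.12 and 5.58 to 6.71 and 7.94.

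NFE2L2 mRNA was 48.6 and 72.6 CPM in control and 59.7 and 75.6 in arsenite (log2 change 0.10, 95% interval −0.03 to 0.24). KEAP1 was 70.0 and 72.3 in control and 63.8 and 66.9 in arsenite, without overlap but short of the threshold (log2 change −0.12, −0.25 to 0.01). BACH1 was 61.8 and 57.3 in control and 60.2 and 57.5 in arsenite, and MAFG 61.8 and 70.5 against 67.1 and 70.0. None of these regulators was called, nor was SQSTM1, with a log2 change of 0.05 (−0.06 to 0.17).

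HMOX1, among the most strongly induced NRF2 targets in later stress, was 39.9 and 32.3 in control and 38.2 and 28.9 in arsenite (log2 change −0.14, 95% interval −0.31 to 0.03). NQO1 was 9.01 and 6.57 in control and 7.75 and 6.96 in arsenite. GCLM was 51.2 and 67.2 against 53.5 and 63.0 (−0.06, −0.20 to 0.07), and GCLC was 77.5 and 66.5 against 69.7 and 66.9 (−0.03, −0.16 to 0.10). TXNRD1 was 240 and 259 in control and 234 and 232 in arsenite, lower without overlap, but it was not called (−0.12, −0.22 to −0.01, adjusted p = 0.191). SRXN1, which repairs overoxidized peroxiredoxins, was 59.2 and 63.1 against 52.7 and 60.2 (−0.09, −0.23 to 0.05). OSGIN1 was at 0 and 0.80 in control and 0 and 0.76 in arsenite, and TXNIP at 0 in 3 mRNA-seq libraries and at 0.09 in the other, both too low to test.

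**Figure D3:**
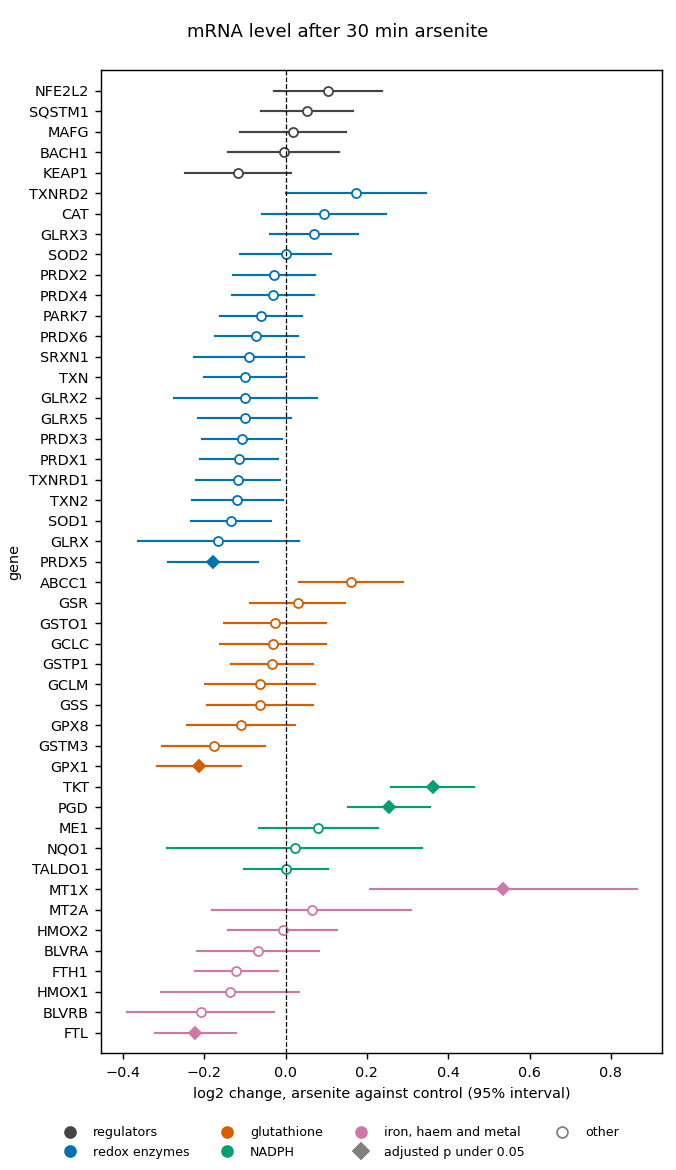
Log2 change in mRNA level after 30 min arsenite for the 47 genes, ordered by role, with the 95% interval of the fit. Filled diamonds passed an adjusted p of 0.05, which are TKT, PGD and MT1X above 0 and FTL, GPX1 and PRDX5 below it. The intervals of the usual NRF2 targets HMOX1, NQO1, GCLM, GCLC and SRXN1 include 0.

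By role, 15 of 19 redox enzymes and 8 of 10 glutathione genes had a log2 change below 0, with medians of −0.10 and −0.05. Over all genes, 6582 of 12600 were below 0. All 5 NADPH genes had a fitted value above 0 (median 0.08), but only TKT and PGD rose in both replicates. The replicates had opposite signs in ME1 (0.42 and −0.02), TALDO1 (0.07 and −0.03) and NQO1 (−0.22 and 0.08). The values ran from −0.18 to 0.17 in redox enzymes, from −0.21 to 0.16 in glutathione genes, from −0.12 to 0.10 in regulators and from −0.22 to 0.54 in iron, haem and metal genes. Of the 47 genes, both arsenite libraries lay above both controls in 2 (TKT and MT1X), where 8.12% of all genes did so, and below both controls in 6 (KEAP1, TXNRD1, SOD1, GLRX5, GPX1 and FTL), where 8.35% did. The calls rest on the replicate as a block. Without it 0 of 12600 genes were called by edgeR (28 at an unadjusted p under 0.05), and DESeq2 with the block called 87 genes (80 higher and 7 lower), of which 1 was TKT. DESeq2 gave an adjusted p for 24 of the 47 genes, MT1X not among them. With mRNA-seq reads on the CDS only, MT1X and PRDX5 were no longer called. With any 1 mRNA-seq library left out and no block, 0 of the 6 were called and PGD and PRDX5 turned direction. PGD then stood at −0.20 without control replicate 2 and −0.28 without arsenite replicate 1, and PRDX5 at 0.05 and 0.08. With no block, the difference in level between the replicates enters these values.

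Ribosome occupancy, the level of CDS footprints, did not change past the threshold for any of the 47 genes, where edgeR called 2.83% of 10291 genes. Of the 47 genes, 7 (14.9%) had an unadjusted p under 0.05, against 17.6% of all genes, and DESeq2 called 0 of the 29 to which it gave an adjusted p. The median log2 change was −0.12 over the set and 0.00 over all genes tested. Values ranged from −1.19 to 0.32 in redox enzymes, −0.40 to 0.45 in glutathione genes, −0.49 to 0.20 in NADPH genes and −0.56 to 0.35 in iron, haem and metal genes. The largest change was that of GLRX, glutaredoxin 1, which takes glutathione off proteins. GLRX occupancy was 14.4 and 17.3 CPM in control and 2.13 and 9.47 in arsenite, from 25 and 133 footprints against 2 and 31 (log2 change −1.19, 95% interval −1.97 to −0.41, adjusted p = 0.0893). The groups did not overlap, and GLRX was called with upper-quartile normalization (adjusted p = 0.0477) and with no filter on low counts (adjusted p = 0.0220). Those settings called 465 of 10291 and 541 of 13636 genes, against 291 of 10291 in the main fit. GLRX was not called with library totals without TMM, with no block or with footprints over the whole transcript.

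Among the genes with the most footprints, the values of the replicates were often unequal. TXN occupancy was 1123 and 738 in control and 558 and 717 in arsenite (log2 change −0.52, −0.95 to −0.08, adjusted p = 0.187), a change of −1.01 in replicate 1 and −0.04 in replicate 2. SOD1 was 938 and 688 in control and 558 and 600 in arsenite (−0.47, −0.86 to −0.08, adjusted p = 0.187). PRDX1, which by number of footprints, not corrected for length, made up 13.7% to 19.6% of the set's total in each library, was 2173 and 1439 against 1912 and 1421 (−0.10, −0.47 to 0.27). Of the pentose phosphate enzymes whose mRNA rose, neither was called in occupancy. PGD was 1103 and 390 in control and 1312 and 430 in arsenite (0.20, −0.17 to 0.56) and TKT 571 and 1035 against 523 and 843 (−0.21, −0.59 to 0.16).

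NFE2L2 occupancy was 78.4 and 73.7 CPM in control and 71.2 and 79.4 in arsenite (log2 change 0.00, 95% interval −0.42 to 0.43). KEAP1 was 46.7 and 86.0 against 43.6 and 90.4 (0.01, −0.43 to 0.45), and BACH1 27.1 and 25.6 against 25.5 and 29.03 (0.09, −0.46 to 0.64). MAFG had 9 and 32 footprints in control and 0 and 15 in arsenite (log2 change −0.39, −1.58 to 0.80). HMOX1 was 60.0 and 48.1 against 47.8 and 43.1 (−0.23, −0.69 to 0.24) and NQO1 20.8 and 11.8 against 12.8 and 9.17 (−0.49, −1.17 to 0.19). GCLM was 80.2 and 52.4 against 38.3 and 59.9 (−0.30, −0.83 to 0.22), GCLC 56.5 and 35.8 against 77.6 and 44.0 (0.37, −0.09 to 0.82), TXNRD1 137 and 119 against 115 and 163 (0.14, −0.28 to 0.56), and SRXN1 5.19 and 14.7 against 2.13 and 13.7 (−0.24, −1.003 to 0.53). These intervals are several times wider than those of the mRNA changes, whose spread was in effect shared over genes.

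The ferritin and GPX1 mRNAs, lowest in TE, had occupancies of 17.9 and 28.7 in control and 14.9 and 36.7 in arsenite for FTL, 91.1 and 37.6 against 84.0 and 46.7 for FTH1, and 19.0 and 47.9 against 37.2 and 54.4 for GPX1. None of the 3 was called. MT1X was at 8.07 and 2.08 against 4.25 and 3.67, MT2A at 9.80 and 3.63 against 3.19 and 4.58, and PRDX5 at 230 and 218 against 117 and 200. Both arsenite libraries lay below both controls in 9 of the 47 genes, where 13.2% of all genes did so, and above them in 4 (GSS, GSTO1, HMOX2 and TXN2), where 12.8% did. As a whole, the 49 genes took 1.09% ± 0.06 (SD, n = 2) of control CDS footprints and 0.985% ± 0.115 of those after arsenite, and 0.814% ± 0.043 and 0.781% ± 0.029 of mRNA-seq reads.

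**Figure D4:**
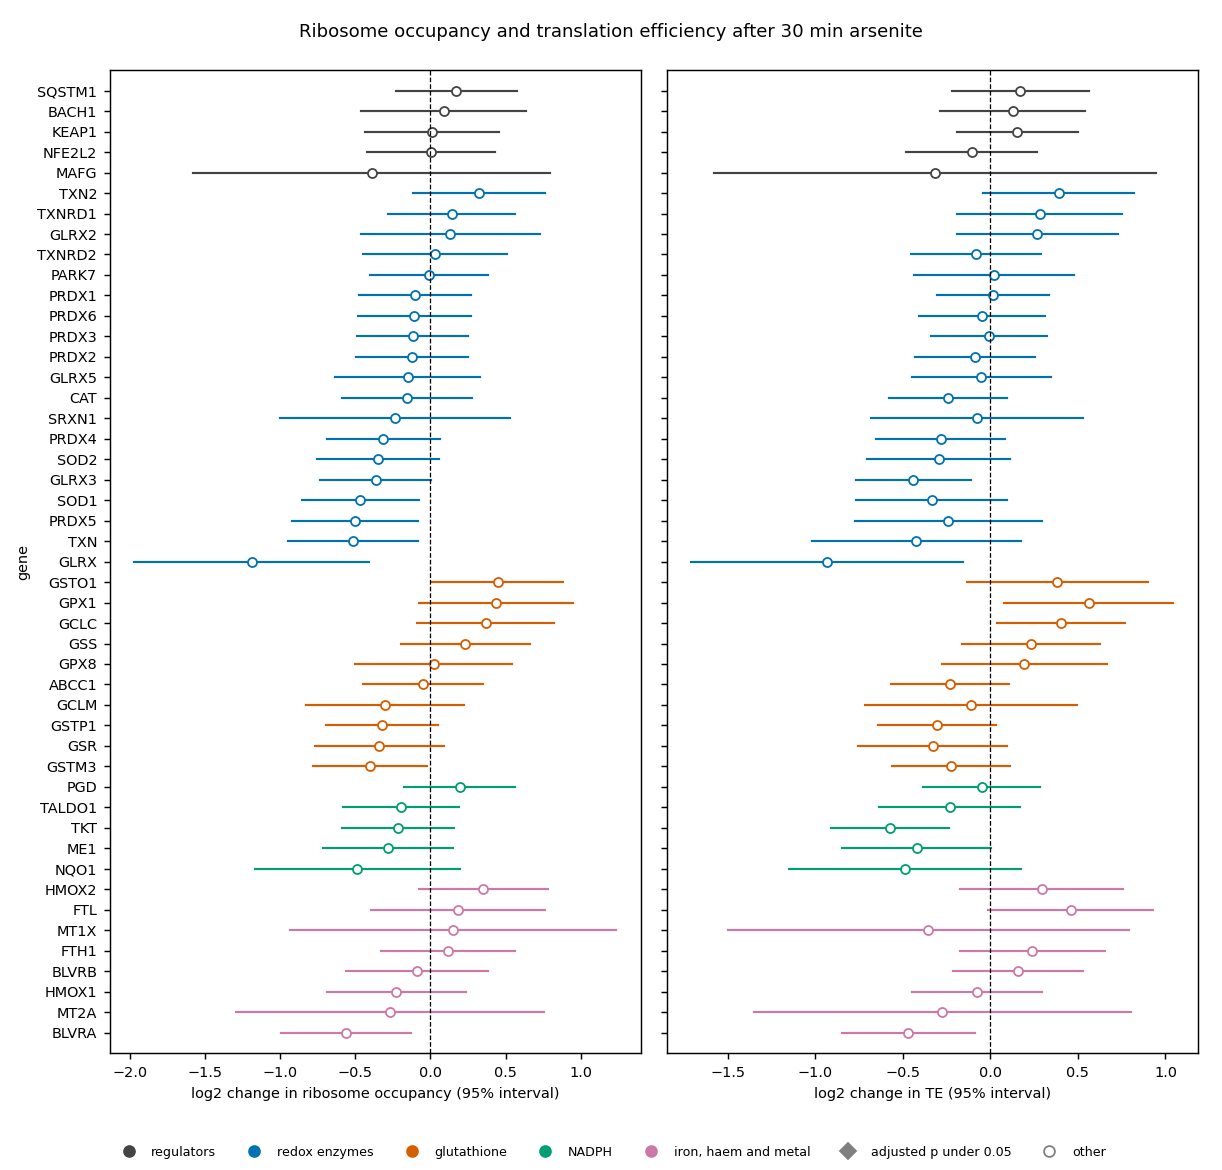
Log2 change in ribosome occupancy (left) and in TE (right) after 30 min arsenite for the 47 genes, ordered by role and by the change in occupancy, with 95% intervals. No gene passed an adjusted p of 0.05 in either panel. GLRX has the lowest value in both, and all 5 NADPH genes have a TE change below 0.

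TE also changed past the threshold for none of the 47 genes, where edgeR called 2.01% of 10273 genes. An unadjusted p under 0.05 was reached by 6 of them (12.8%), against 21.2% of all genes, and DESeq2 called 0 of the 33 to which it gave an adjusted p. With 1 ribo-seq library left out, the error of the fit came from the mRNA-seq libraries alone, and 10 to 17 of the genes were called among 1595 to 2391 of all genes. TKT came nearest, with mRNA up and occupancy not, at a log2 TE change of −0.58 (95% interval −0.91 to −0.24, adjusted p = 0.0748), and −0.47 and −0.67 in replicates 1 and 2. All 5 NADPH genes had a fitted TE change below 0, with a median of −0.42 against −0.01 over all genes tested, of which 5283 of 10273 were below 0. The replicates of PGD had opposite signs (0.07 and −0.16). The values were −0.49 for NQO1 (−1.15 to 0.18), −0.42 for ME1 (−0.85 to 0.01), −0.23 for TALDO1 (−0.64 to 0.17) and −0.05 for PGD (−0.38 to 0.29). The redox enzymes had a median of −0.08, with 14 of 19 below 0, and GLRX (−0.93), GLRX3 (−0.44) and TXN (−0.42) lowest. Glutathione genes ranged from −0.33 to 0.56 and iron, haem and metal genes from −0.47 to 0.46.

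The highest TE change in the set was that of GPX1, at 0.56 (95% interval 0.08 to 1.05, adjusted p = 0.181), followed by FTL at 0.46 (−0.01 to 0.93) and GCLC at 0.40 (0.04 to 0.77). The replicates of FTL had opposite signs (−0.02 in replicate 1 and 0.56 in replicate 2). Since GPX1 and FTL stood at −3.01 and −4.02 in control, changes of that size left them far below the median. The 5 regulators ranged from −0.32 (MAFG) to 0.17 (SQSTM1), with NFE2L2 at −0.11 (−0.48 to 0.27), KEAP1 at 0.15 (−0.19 to 0.50) and BACH1 at 0.13 (−0.29 to 0.54). HMOX1 was at −0.08 (−0.45 to 0.29), GCLM at −0.11 (−0.72 to 0.49), TXNRD1 at 0.28 (−0.19 to 0.75) and SRXN1 at −0.07 (−0.68 to 0.53).

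Footprints in the 5′ leader, where upstream open reading frames (uORFs) are read, could be compared in few genes. A mean of at least 5 leader and 10 CDS footprints was reached by 8 of the 49 genes (16.3%), against 6.88% of all 19964 genes. These shares are not alike, since 47 of the 49 but only 10291 of the 19964 had enough CDS footprints to test. Of the 8, 0 showed a shift between leader and CDS past the threshold, where edgeR called 0.218% of 1373 genes. SOD1 and PRDX2 had an unadjusted p under 0.05 (25% of the 8), against 14.4% of the 1373 genes, and DESeq2 called 0. SOD1 had 0 and 9 leader footprints in control and 1 and 19 in arsenite (log2 shift 2.62, 95% interval 0.68 to 4.56, adjusted p = 0.260). PRDX2 had 0 and 26 in control and 2 and 28 in arsenite (1.61, 0.00 to 3.22), and FTL 0 and 20 against 2 and 26 (1.52, −0.15 to 3.18). The shift was above 0 in all 8, including PRDX1 (0.39), TXNRD1 (0.47), KEAP1 (0.52), GCLM (0.68) and TXN (1.26), but the median over all genes tested was itself 0.81.

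The wider pathway was represented by 131 further genes listed by role, of which 103 were tested at the mRNA level. There, 13 rose and 4 fell, where 3.78% of all genes were called higher and 2.00% lower. In NADPH and quinone metabolism 5 of 22 rose and 0 fell. They included the transhydrogenase NNT (log2 change 0.30), the folate enzyme MTHFD1 (0.17), the P450 reductase POR (0.25) and the epoxide hydrolase EPHX1 (0.38). Counting rises only, the next group in that list was iron, haem and metal genes, where 3 of 21 rose and 0 fell. These were the zinc exporter SLC30A1, itself a metal-responsive gene as MT1X is (0.65), the iron regulatory protein ACO1 (0.25) and ALAS1, which starts haem synthesis (0.21).

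Of 23 further glutathione genes, SLC3A2, a chain of the cystine transporter (0.34), and the glutathione-degrading CHAC1 (0.47) rose, whereas the peroxidase GPX4 (−0.22) and the transferase MGST3 (−0.29) fell. Of 20 further thiol enzymes, the protein disulphide isomerases P4HB (0.22) and PDIA4 (0.17) rose, and the sestrin SESN1 (−0.25) and TXNL4A, a thioredoxin-fold protein of the spliceosome (−0.24), fell. Of 17 partners and regulators of NRF2, CAND1, which acts on the cullin ligases that degrade NRF2, rose (0.17). In occupancy and in TE, 2 of 96 genes passed and both fell, where 2.83% and 2.01% of all genes were called. The mitochondrial folate enzyme MTHFD2 changed by −1.09 in occupancy and −1.06 in TE, and the sestrin SESN3 by −1.36 and −1.38. The 2 measures share the ribo-seq libraries.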

How the data were processed

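The data are 8 libraries of HEK293T cells, 4 of ribosome footprints and 4 of mRNA fragments. The authors trimmed reads with cutadapt, set rRNA reads aside, aligned the rest to RefSeq transcripts with Bowtie 1.0.0, dropped reads that matched more than 1 gene, and deposited raw read counts per transcript and per 5′ leader, CDS and 3′ UTR. Per gene, the coding transcript with the most CDS footprints over both control libraries was used, where 24 of the 49 genes have several. No transcript lengths were used.

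Tests were edgeR 4.0.16 quasi-likelihood (R 4.3.3), TMM within each assay, a mean of at least 10 counts, Benjamini-Hochberg adjustment over all genes tested, and a threshold of 0.05. Intervals are 95%. TE change is the interaction of assay and treatment, and the leader shift that of region and treatment. For single replicates, 0.5 was added to each count as a prior. The replicate number entered as a block, because the study's methods give each replicate its own adapters and sequencing. Libraries of a replicate deviated together (correlation 0.793 in ribo-seq over 7381 genes and 0.866 in mRNA-seq over 10880). The study's methods describe the replicates as biologically independent. Simulated data had a fixed dispersion of 0.02 and 200 genes changed 4-fold (50 for the leader). Of these, 194 were recovered for RNA levels, 184 for occupancy, 175 for TE, 195 for control TE, and 14 for the leader shift, which is therefore insensitive. False calls numbered 16, 4, 4, 6 and 2 in the same order. Changes as small as those called here for mRNA were not simulated, so their recovery is not known.

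The genes and lists were chosen with earlier results of these data known. Genes named with values in every library are those past the threshold, NFE2L2, KEAP1, BACH1, MAFG, 7 usual targets, and the 3 highest and 3 lowest in TE. Occupancies of GLRX, TXN, SOD1 and PRDX1 were added after their values were seen. The others past the threshold in control TE alone are given by their TE in each control replicate. Of the other lists, genes are named only where mRNA, occupancy or TE changed. A gene of these lists that passed is not reported here. Alternatives were DESeq2 1.42.0, other normalizations, filters, transcripts, regions and prior counts, no block, Z-scores in bins of 300 genes as in the study's methods, and leaving out libraries. Spike-in values were not used. Tables and figures used Python 3.11.15, pandas 2.3.3, scipy 1.17.1 and matplotlib 3.10.9.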

Additional observations from a re-analysis of the deposited data

Results flagged for a closer look

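Footprints in the 3′ UTR entered no comparison above. In PRDX1 they exceeded control beyond the 95% Wilson intervals in both replicates, the only one in which they did of the 46 genes with footprints in all 4 ribo-seq libraries. In replicate 1 they rose from 0 of 3775 footprints on the transcript, which allows a share of up to 0.0795% by a limit of 3 counts and 0.102% by the Wilson interval, to 14 of 1815, or 0.771% (0.460% to 1.29%). In replicate 2 they went from 7 of 11144, or 0.0628% (0.0304% to 0.130%), to 176 of 4854, or 3.63% (3.14% to 4.19%). Over all genes the share moved from 0.102% to 0.201% in replicate 1 and from 0.204% to 0.755% in replicate 2. PRDX1 had the most footprints of the set, and the rise was not confined to it. In the set without PRDX1 the share went from 0.0685% to 0.175% in replicate 1, with overlapping intervals. In replicate 2 it went from 0.0725% to 0.424%, beyond them. Genes that passed their intervals in replicate 2 alone included PRDX2 (0.0409% to 0.484%) and PARK7 (0.0354% to 1.02%). Among 348 genes with at least 500 CDS footprints in both arsenite libraries, a minimum chosen after seeing the data, PRDX1 ranked 7 from the highest in replicate 1 and 1 in replicate 2. Intervals cover counting error only, and what the footprints represent was not tested.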

How the results depend on the processing

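With no replicate block, 0 genes were called for RNA level, 0 for occupancy, 0 for TE and 0 for the leader shift, and 0 of the antioxidant genes for RNA level, against 728, 291, 206 and 3 genes and 6 antioxidant genes with it. For control TE, 853 genes (191 higher and 662 lower) and 3 of the set were called without the block, against 6055 (2993 and 3062) and 34. DESeq2 called 87 genes for RNA level (1 of the 24 of the set with an adjusted p), 54 for occupancy, 89 for TE and 0 for the leader shift. For occupancy, upper-quartile normalization called 465 genes (1 of the set, GLRX), library totals without TMM 71, and no filter on low counts 541 (1 of the set, GLRX). For TE, no filter called 433 genes, a mean of at least 50 counts 112 and mRNA-seq reads on the CDS 87, and library totals without TMM turned the split from 102 higher and 104 lower to 115 and 78. RNA levels on the CDS called 240 genes (201 higher and 39 lower, against 476 and 252), and a minimum of 20 leader reads gave 19 leader shifts among 232 genes. A Z-score past 4 was reached in replicates 1 and 2 by 9 and 24 genes for RNA level, 4 and 13 for occupancy, and 6 and 9 for TE, of which 0 and 0 belonged to the set. The cause of these differences was not tested.

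With 1 library left out, RNA level calls numbered 4 to 7 genes and 0 of the set, occupancy calls 0 to 1, and TE calls 8 to 2391 genes and 0 to 17 of the set. The high TE counts are those without a ribo-seq library, where the error rests on mRNA-seq alone. The RNA level fits with 1 library left out had no replicate block, so the difference between replicates enters their values. There, log2 values ranged from −0.28 to 0.81 for PGD and −0.56 to 0.078 for PRDX5. Within replicates 1 and 2, PGD rose (0.18 and 0.30) and PRDX5 fell (−0.31 and −0.14). The TE fits kept the block, and PARK7 ranged from −0.24 to 0.37 in them. Left to 1 replicate, the control TE of TALDO1 was −0.012 or 0.72, and no calls can be made there. With no filter, all control TE values shifted by a median of 0.13, and with a minimum of 50 counts by −0.16. A prior count of 2 moved single-replicate values of GLRX, MAFG, MT1X, MT2A and SRXN1 by more than 0.1, at most by 1.85 (MAFG), with 0 changes of sign. These genes have few footprints, fewer in the shallower replicate 1.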
